A study of Mus musculus with 9 samples.

Results

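B cell and immunoglobulin genes were followed in RNA from the cochlear membranous labyrinth, the soft tissue inside the bony shell of the hearing organ. The 7 genes were chosen by symbol: Cd79a, Cd79b and Ms4a1 at the B cell surface, Vpreb3 of developing B cells, Ighm and Igkc, the constant regions of the mu heavy chain and the kappa light chain, and Jchain, the joining chain of secreted antibody. All 7 were among the 25579 symbols measured in treated and homozygous mice, and 1 of them, Ighm, was among the 1410 symbols measured in homozygous and wild-type mice. Treated mice were homozygous for hMPZL2 Q74X, a humanized gene with a nonsense change, and were injected at postnatal day 2 through the round window with AAV-ie-ABE8eWQ-SpRY:sgRNA3, a viral vector for an adenine base editor and its guide. Homozygous mice carried the same alleles, and wild-type (WT) mice are given as Mpzl2 WT. The labels describe an injection for the treated mice alone, and no group with an empty or control vector was analysed here. Mice of all 3 groups were sampled at postnatal day 28, with 3 libraries each labelled as biological replicates, so p-values measure the spread between these samples. The titles gave the groups, since the residue number or gene name in the genotype field of the labels runs upward over the samples.

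A B cell carries a membrane antibody as its receptor, made of heavy and light chains, and the CD79A and CD79B chains beside it pass the signal into the cell. Each chain is encoded by 1 of many variable segments, joined in the DNA of the developing cell and spliced to a constant region, so each B cell clone uses its own segments. B cell precursors in bone marrow pair the heavy chain first with a surrogate light chain, and most naive B cells express IgM, whose heavy chain is encoded by Ighm. Plasma cells secrete antibody, and Jchain links IgM and IgA into polymers.

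Values are TPM, relative transcript abundances corrected for length and for the size of the library, so that levels of different genes can be set side by side. The depth of the libraries is unknown. Treated libraries 1 and 2 stood apart: for genes at 1 to 5 TPM, the spread of their log2 ratio, taken from its median absolute deviation, was 0.0695, against 0.869 to 1.09 between pairs of homozygous libraries and 1.83 between treated libraries 1 and 3. As a plain SD, which a few far-off genes widen, it was 0.705, against 1.58 to 1.81 and 2.79. Their difference was below that between other replicates on both measures, so their mean entered as 1 sample, which left 2 treated samples. A forebrain gene also set them apart, as Camk2a, a kinase gene of forebrain neurons, had 745, 722 and 8.13 TPM in treated libraries, against 0.471, 0.503 and 0.554 TPM in homozygous libraries. Mitochondrially encoded genes took 2.17%, 2.22% and 6.16% of the TPM in treated libraries, against 13.6%, 10.7% and 13.4% in homozygous libraries. Markers of the tissue were present in each library, with Coch, the fibrocyte matrix gene cochlin, at 3735 to 4141 TPM in treated libraries, against 6110 to 7698 TPM in homozygous libraries. Tests used limma on log2(TPM + 1) with Benjamini-Hochberg adjustment over every tested gene and a threshold of 0.05, and fold changes on this scale understate the change of genes with low values.

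Upstream sequence was held by the RefSeq promoter table for 3 of the 7 genes, Cd79a, Vpreb3 and Jchain. The 250 bases before the start are printed for Vpreb3, at chr10:75948050-75948299 on the plus strand, and Cd79a, at chr7:24897247-24897496 on the plus strand, both in build GRCm38.p6. They are shown because Vpreb3 was the one gene lower in every treated library and Cd79a was not higher as a group, unlike its partner Cd79b. Capitals mark matches to motifs of 2 kinds of factor known from B cells, searched on both strands: the octamer ATGCAAAT and the E2A motif CAGGTG.
Vpreb3: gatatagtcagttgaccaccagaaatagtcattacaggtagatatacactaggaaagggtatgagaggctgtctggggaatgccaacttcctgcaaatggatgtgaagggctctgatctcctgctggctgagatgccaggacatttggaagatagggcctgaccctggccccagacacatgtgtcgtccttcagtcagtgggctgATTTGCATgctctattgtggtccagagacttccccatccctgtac
Cd79a: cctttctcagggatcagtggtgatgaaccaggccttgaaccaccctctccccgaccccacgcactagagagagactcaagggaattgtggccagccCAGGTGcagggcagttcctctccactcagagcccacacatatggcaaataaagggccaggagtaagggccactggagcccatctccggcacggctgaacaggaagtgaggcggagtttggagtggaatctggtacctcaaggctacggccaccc
The Vpreb3 window held 1 octamer in reverse orientation, its first base at position -45 from the start, and the Cd79a window held 1 E2A motif at position -154. The Jchain window held neither motif. Over all 32851 promoter windows of this length, 1.60% held the octamer and 17.2% the E2A motif. A match describes letters and says nothing of binding.

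The antibody chains and Cd79b were higher in every treated library than in every homozygous library, while Vpreb3 was lower and Cd79a and Ms4a1 overlapped. None of these differences passed the threshold. Of the 7 genes, 5 passed the filter of at least 1 TPM in at least 3 libraries, and 0 of these 5 were called by limma, against a background of 4.41% of 17102 tested genes. At an unadjusted p under 0.05 there were 3, Ighm, Igkc and Vpreb3, beside a background of 26.7%. Among the 5, 3 were higher without overlap, where 28% of all tested genes were, and 1 was lower without overlap, where 14.8% of all tested genes were. The median log2 fold change of the 5 was 0.83, beside 0.20 for all tested genes. In bulk tissue, a change in the number of cells of a type and a change in RNA per cell cannot be told apart.

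Ighm, the heavy chain of IgM, was the most abundant of the 7 genes in each of the 6 libraries. Its level was 76.6, 74.1 and 57.9 TPM in treated libraries, against 36.0, 46.3 and 29.5 TPM in homozygous libraries. All treated libraries were above all homozygous libraries, and treated library 3 was the closest to them. The mean was 66.6 ± 12.3 TPM in treated samples (SD, n = 2) and 37.3 ± 8.48 TPM in homozygous samples (SD, n = 3), a ratio of 1.79. This was a log2 fold change of 0.83 (SE 0.26, 95% interval 0.22 to 1.45), and the limma adjusted p was 0.107. Scaling the libraries by the median of gene ratios gave a median log2 fold change of 0.02 over all tested genes, in place of 0.20, and 0.64 for Ighm.

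Igkc, the kappa light chain constant region that pairs with the heavy chain, came next in 5 of the 6 libraries. It had 24.4, 24.2 and 17.7 TPM in treated libraries, against 6.49, 10.1 and 2.44 TPM in homozygous libraries. The groups did not overlap, and homozygous library 2 was the highest of its group for Igkc as for Ighm. Means were 21.0 ± 4.66 TPM in treated samples (SD, n = 2) and 6.33 ± 3.81 TPM in homozygous samples (SD, n = 3), a ratio of 3.32. On the log2 scale the difference was 1.72 (SE 0.54, 95% interval 0.44 to 3.01; limma adjusted p = 0.108). The Ighm to Igkc ratio of TPM was 3.14, 3.06 and 3.27 in treated libraries, against 5.55, 4.61 and 12.1 in homozygous libraries, so Ighm stood further above Igkc in each homozygous library.

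Jchain was low throughout, at 0.712, 0.682 and 1.63 TPM in treated libraries, against 0.559, 0 and 0.597 TPM in homozygous libraries. The treated libraries were above the homozygous ones, by a narrow margin except in treated library 3. Jchain did not pass the filter on low values; fitted without that filter, its log2 fold change was 0.64 (SE 0.32; limma adjusted p = 0.368).

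Cd79a and Cd79b encode the paired signalling chains of the receptor, and their RNAs differed in order between libraries. Cd79b had 6.10, 7.47 and 4.54 TPM in treated libraries, against 1.62, 3.69 and 0 TPM in homozygous libraries. Treated libraries were all higher, and homozygous library 3 was listed at 0. The log2 fold change of Cd79b was 1.51 (SE 0.68, 95% interval -0.13 to 3.14; limma adjusted p = 0.215). Cd79a had 1.20, 1.17 and 6.07 TPM in treated libraries, against 3.02, 7.94 and 2.74 TPM in homozygous libraries. Here treated libraries 1 and 2 were the lowest of the 6, treated library 3 was the next to highest, and the groups overlapped. The log2 fold change of Cd79a was -0.38 (SE 0.66, 95% interval -1.95 to 1.19; limma adjusted p = 0.746), an interval that spans higher and lower levels. With treated library 3 as the sole treated sample the log2 fold change of Cd79a was 0.47, and without homozygous library 2 it was 0.02, so its direction turned with the libraries used.

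Ms4a1 encodes CD20, a surface protein of B cells from the precursor stage until they become plasma cells. It had 1.56, 2.62 and 0.0190 TPM in treated libraries, against 0.586, 0.865 and 0.293 TPM in homozygous libraries. The treated libraries held both the highest values and the lowest, so the groups overlapped, and the gene did not pass the filter. Without the filter its log2 fold change was 0.18 (SE 0.52; limma adjusted p = 0.863).

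Vpreb3 belongs to the surrogate light chain gene group and is known from B cell precursors. It was listed at 0 in treated libraries 1 and 2 and had 0.652 TPM in treated library 3, against 1.52, 3.56 and 3.19 TPM in homozygous libraries. It was the one gene of the 7 that was lower in every treated library. Its log2 fold change was -1.50 (SE 0.47, 95% interval -2.63 to -0.37; limma adjusted p = 0.109), and with treated library 3 as the sole treated sample it was -1.14.

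**Figure D1:**
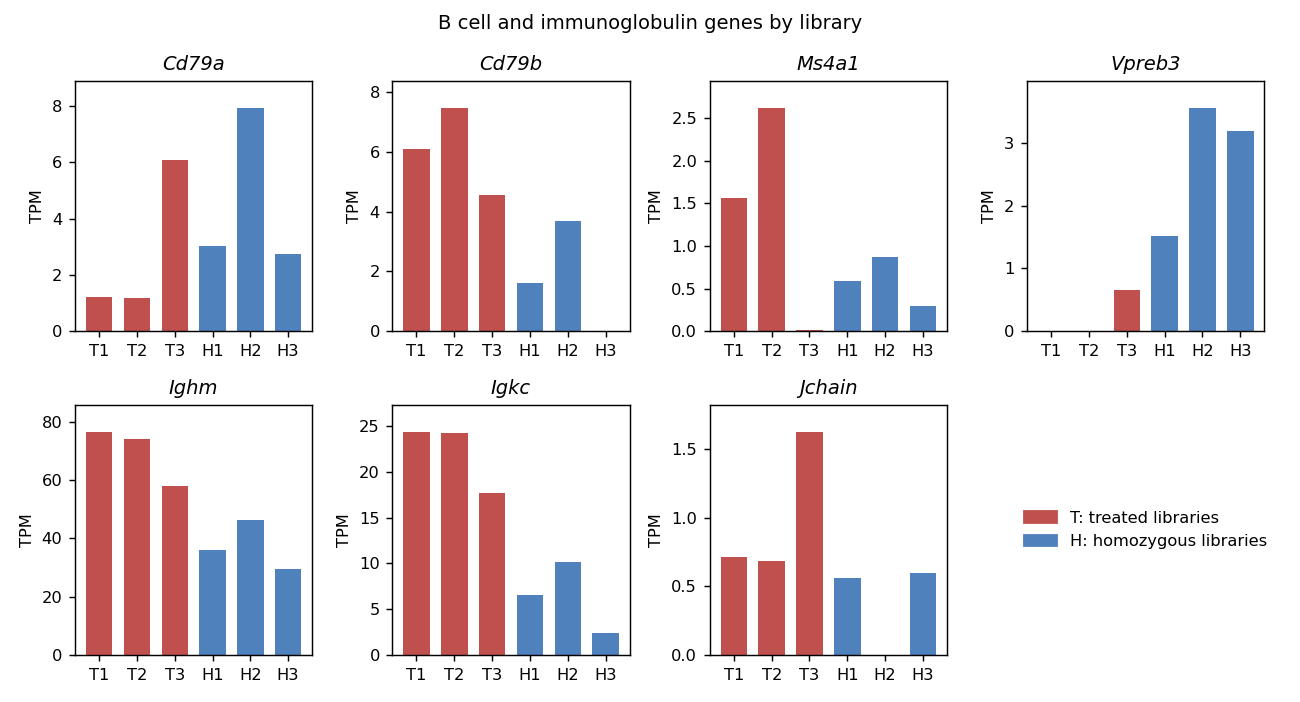
TPM of the 7 genes in each of 3 treated (T, red) and 3 homozygous (H, blue) libraries, each panel with its own axis from 0. Ighm, Igkc, Cd79b and Jchain are higher in all treated libraries, Vpreb3 is lower, and Cd79a and Ms4a1 overlap.

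The calls rest on how treated libraries 1 and 2 are counted. With all 3 treated libraries as separate samples, 3 of the 5 genes passed the threshold, Ighm and Igkc higher and Vpreb3 lower, with limma adjusted p-values of 0.0292, 0.0333 and 0.0270. With treated library 3 as the sole treated sample, assumed to vary like the homozygous samples, the log2 fold change was 0.64 for Ighm, 1.51 for Igkc and 1.26 for Cd79b, with adjusted p-values of 0.227, 0.226 and 0.385. The directions of these 3 genes were therefore seen in treated library 3 as well, at smaller sizes.

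The summed level of the 7 genes was 111, 110 and 88.5 TPM in treated libraries, against 49.8, 72.5 and 38.8 TPM in homozygous libraries. Ighm made up 69.3%, 67.2% and 65.4% of that sum in treated libraries, against 72.3%, 64% and 76.1% in homozygous libraries. Within treated libraries 1 and 2 the order of levels was Ighm, Igkc, Cd79b, Ms4a1, Cd79a and Jchain, with Vpreb3 at 0. In treated library 3 and in homozygous libraries 1 and 2, Cd79a came after Igkc. In homozygous library 3, Vpreb3 and Cd79a were above Igkc. Igkc was next after Ighm and well above the other genes in all treated libraries, while its place changed among homozygous libraries. Below Igkc the order also changed among treated libraries, so neighbours there were not separated by more than that spread.

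The homozygous libraries also differed among themselves. Homozygous library 2 was the highest of the 3 for 6 of the 7 genes, all but Jchain, and homozygous library 3 was the lowest for 5. Among the 17072 genes above 0 and tested, 40.6% were highest in homozygous library 2, and 5312 were lowest in homozygous library 3. Homozygous library 2 was highest for 10 of 10 marrow granulocyte genes, 7 of 7 erythroid genes and 9 of 9 bone genes. It was also highest for 8 of 10 macrophage genes and 14 of 16 further B cell surface genes. The counts were 7 of 12 for cochlear tissue, 5 of 11 for T cell and 0 of 7 for dendritic cell genes. Summed bone genes, such as the matrix genes Col1a1 and Ibsp, reached 122, 119 and 97.2 TPM in treated libraries, against 270, 1100 and 286 TPM in homozygous libraries. Summed marrow granulocyte genes reached 235, 235 and 244 TPM in treated libraries, against 149, 628 and 55.6 TPM in homozygous libraries, and summed erythroid genes 1105, 1281 and 1132 TPM against 830, 2731 and 250 TPM. Of these genes, 0 of 10 marrow granulocyte and 0 of 7 erythroid genes passed the threshold, while 2 of 9 bone genes were lower past it. The shares over all tested genes were 3.44% higher and 0.965% lower. The median log2 fold change of the 10 granulocyte genes was 1.62, with 8 positive and 2 negative. Of the 10 granulocyte genes, 3 were higher in every treated library, where 28% of all tested genes were. They were Elane, Camp and Ly6g, genes of granule proteins and a neutrophil surface protein, with 1.88, 1.85 and 1.51. The groups overlapped for the other granulocyte genes, and S100a8 had -0.82. The 2 most abundant, S100a9 and Ltf, had -1.09 and 0.84, the globin genes Hbb-bs and Hba-a1 had 0.94 and 0.35, and Col1a1 and Ibsp had -1.30 and -2.79. Bone marrow is a site of B cell precursors, and the part of marrow or bone content in the levels of the 7 genes was not tested.

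T cell and macrophage genes were higher in treated libraries, several of them past the threshold, where 3.44% of all tested genes were higher past it. Of 13 T cell genes, 12 were tested, 9 were higher past the threshold and the median log2 fold change was 3.09. Their summed level was 142, 135 and 191 TPM in treated libraries, against 7.59, 7.26 and 5.04 TPM in homozygous libraries. Cd3e, a chain of the T cell receptor complex, had 24.4, 23.7 and 44.5 TPM in treated libraries, against 2.71, 0.480 and 0 TPM in homozygous libraries. The groups were far apart for it, by 4.26 on the log2 scale (limma adjusted p = 0.0244), and for Trbc2, the receptor beta chain constant region, with 3.99 (limma adjusted p = 0.018). Of 10 macrophage genes, 6 were higher past the threshold, with a median log2 fold change of 2.05. Their sum was 493, 478 and 548 TPM in treated libraries, against 97.6, 140 and 103 TPM in homozygous libraries. Csf1r, the receptor for colony stimulating factor, and C1qa, a complement chain, had log2 fold changes of 2.28 and 2.50 (limma adjusted p = 0.025 and 0.00908). The sum of the 7 B cell and immunoglobulin genes was 2.06, 2.05 and 1.65 times the homozygous mean in treated libraries. Dendritic cell genes had 1 of 6 higher past the threshold, Itgax at 2.61 on the log2 scale, and a median of 0.29, with the most abundant, Flt3 and Zbtb46, at -1.09 and 0.16. Cochlear tissue genes had 1 of 12 higher past the threshold, Otog at 2.05, and a median of 0.82 with 8 positive. Of these 12 genes, 4 were higher in every treated library, where 28% of all tested genes were. They were Otog and, at 1.86, 1.07 and 1.05, Tectb, Otoa and Slc26a5. The most abundant, Coch and Gjb2, were at -0.87 and -0.25, and Coch was lower in every treated library. The sum of the cochlear genes was 5513, 5311 and 6108 TPM in treated libraries, against 9135, 9958 and 7413 TPM in homozygous libraries. Forebrain neuron genes had 0 of 3 tested past the threshold, with Camk2a at 5.76 and Slc17a6 at -1.65. Slc17a6 was at 54.5, 32.6 and 69.0 TPM in homozygous libraries. Tbr1, Neurod2 and Neurod6 did not pass the filter, so that count leaves them out. Tbr1 had 27.3, 26.4 and 0 TPM in treated libraries, against 0, 0 and 0.362 TPM in homozygous libraries. Neurod2 and Neurod6 were likewise high in treated libraries 1 and 2 alone. None of the 12 T cell or 10 macrophage genes tested was lower past the threshold, and whether these cells bear on the levels of the 7 genes was not tested.

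**Figure D2:**
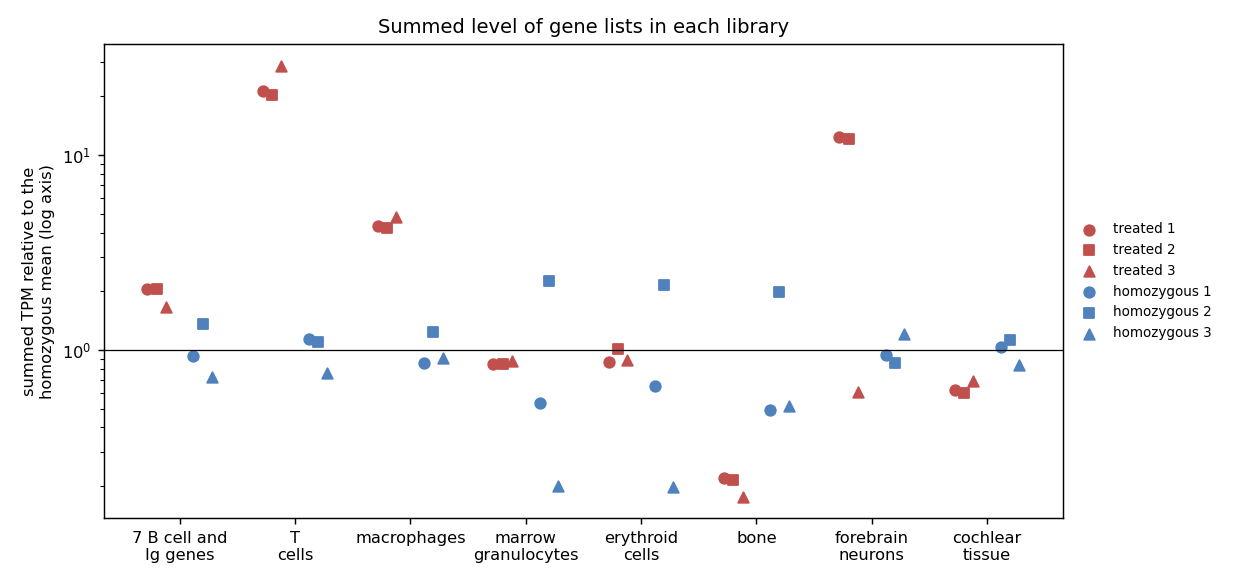
Summed TPM of the 7 genes and of marker lists in each library, divided by the mean of the 3 homozygous libraries (log axis; red, treated; blue, homozygous; marker shape, library number). The 7 genes lie at 1.65 to 2.06 in treated libraries, below T cells and macrophages. Bone, marrow granulocyte and erythroid sums are highest in homozygous library 2. The forebrain neuron sum is raised in treated libraries 1 and 2 alone, although Camk2a of that list is also higher in treated library 3 (8.13 TPM) than in homozygous libraries (0.471 to 0.554 TPM).

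The remaining genes of the B lineage were counted over 7 lists of 84 genes. Of these, 80 were in the table and 66 were tested. 7 were higher past the threshold and 0 were lower, beside backgrounds of 3.44% higher and 0.965% lower, which are 589 and 165 genes. Under median-of-ratios scaling 402 genes were higher and 231 lower, and the lists again held 7 calls, all higher. The median log2 fold change of the 66 was 0.85, beside 0.20 for all tested genes. The 7 called genes lay in 3 of the lists: surface proteins, receptor signalling and transcription factors. Precursor, plasma cell, constant region and cytokine genes had none.

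Among surface genes, 2 of 13 tested were higher past the threshold and 0 were lower. Cd72, an inhibitory co-receptor of B cells, had 70.0, 58.1 and 43.6 TPM in treated libraries, against 4.27, 11.4 and 4.49 TPM in homozygous libraries. The groups were far apart, with 53.8 ± 14.5 TPM in treated samples (SD, n = 2) and 6.72 ± 4.05 TPM in homozygous samples (SD, n = 3). Cd72 had a log2 fold change of 2.92 (SE 0.46; limma adjusted p = 0.0274). Cd180, a toll-like receptor relative of B cells and macrophages, had 10.4, 7.93 and 12.3 TPM in treated libraries, against 1.10, 1.14 and 1.87 TPM in homozygous libraries (log2 fold change 2.31; limma adjusted p = 0.0331).

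Among receptor signalling genes, 3 of 14 tested were higher past the threshold. Inpp5d, the lipid phosphatase SHIP1 of blood cells, had 47.3, 37.8 and 35.9 TPM in treated libraries, against 4.55, 11.7 and 3.74 TPM in homozygous libraries (log2 fold change 2.53; limma adjusted p = 0.041). Pik3ap1, an adaptor to the lipid kinase PI3K in B cells and macrophages, had 40.3, 37.6 and 40.8 TPM in treated libraries, against 10.1, 12.3 and 6.07 TPM in homozygous libraries (2.01; adjusted p = 0.0336). The groups did not overlap for either gene. The kinase genes nearest the receptor, Lyn, Syk, Btk and Blk, had log2 fold changes of 1.06, 1.16, 0.85 and 0.94, none of them past the threshold.

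Among transcription factors, 2 of 13 tested were higher past the threshold, and both are known from myeloid cells as well as from B cells. Irf8 had 22.2, 19.2 and 18.2 TPM in treated libraries, against 3.51, 4.40 and 2.36 TPM in homozygous libraries (log2 fold change 2.24; limma adjusted p = 0.0324). Spi1, the gene of PU.1, had 23.3, 13.3 and 14.5 TPM in treated libraries, against 2.82, 4.55 and 2.95 TPM in homozygous libraries (1.98; adjusted p = 0.0407). Both were higher in every treated library. Pax5, the factor that keeps B cell identity, had 18.5, 18.2 and 9.34 TPM in treated libraries, against 2.81, 11.8 and 0.329 TPM in homozygous libraries, and the groups overlapped (1.82; adjusted p = 0.256). Ebf1, a B lineage factor also known from stromal cells, had 94.1, 103 and 80.8 TPM in treated libraries, against 105, 125 and 118 TPM in homozygous libraries. It was lower in every treated library without passing the threshold (-0.37; adjusted p = 0.251). Bcl11a, a factor of lymphoid precursors and of cortical neurons, had 40.8, 39.0 and 3.68 TPM in treated libraries, against 7.57, 7.23 and 10.6 TPM in homozygous libraries. It was high in the libraries with high Camk2a and low in treated library 3, and the part of forebrain RNA in it was not tested.

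Precursor genes had 0 of 7 tested past the threshold and a median log2 fold change of 0.18. By unadjusted p under 0.05 there was 1, beside a background of 26.7% of all tested genes. Lef1 and Cd93, the most abundant, had log2 fold changes of -0.04 and -0.25 (limma adjusted p = 0.94 and 0.566). Igll1, the surrogate light chain gene lambda 5, had 2.17, 2.15 and 5.94 TPM in treated libraries, against 0.707, 0.856 and 0 TPM in homozygous libraries. It was higher in every treated library, unlike Vpreb3 of the same gene group, with a log2 fold change of 1.67 (95% interval 0.42 to 2.93; adjusted p = 0.109). Vpreb1, the partner of Igll1 in the surrogate light chain, was listed at 0 in all 3 treated libraries and had 0.151, 2.01 and 0 TPM in homozygous libraries. Rag1, of the recombinase that joins the segments, had 1.13, 1.06 and 4.56 TPM in treated libraries, against 0, 2.57 and 0 TPM in homozygous libraries, and the groups overlapped.

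Plasma cell and secretion genes had 0 of 11 tested past the threshold and a median log2 fold change of 0.55. By unadjusted p under 0.05 there were 3, beside a background of 26.7% of all tested genes. Xbp1, a secretory factor of many cell types, had 134, 137 and 163 TPM in treated libraries, against 88.0, 92.1 and 75.1 TPM in homozygous libraries (0.80; limma adjusted p = 0.0595). The groups did not overlap for it. Sec11c, a signal peptidase subunit, had a log2 fold change of -0.73 (adjusted p = 0.186). Tnfrsf17, the plasma cell receptor BCMA, was listed at 0 in all treated libraries and reached 0.681 TPM at most in homozygous libraries. Mzb1, a chaperone of antibody assembly, had 8.06, 7.70 and 0.394 TPM in treated libraries, against 0, 1.20 and 0 TPM in homozygous libraries, high in treated libraries 1 and 2 alone.

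Cytokine and germinal centre genes had 0 of 6 tested past the threshold and a median log2 fold change of 0.15. By unadjusted p under 0.05 there was 1, beside a background of 26.7% of all tested genes. That 1 was Tnfsf13b, the B cell survival factor BAFF, at 4.61, 4.78 and 4.66 TPM in treated libraries, against 0.262, 1.14 and 0.827 TPM in homozygous libraries. The groups did not overlap, and the log2 fold change was 1.74 (95% interval 0.74 to 2.73; limma adjusted p = 0.0641). Tnfsf13, the related factor APRIL, and Bcl6, a germinal centre factor, had log2 fold changes of -0.14 and 0.08 (adjusted p = 0.73 and 0.84).

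**Figure D3:**
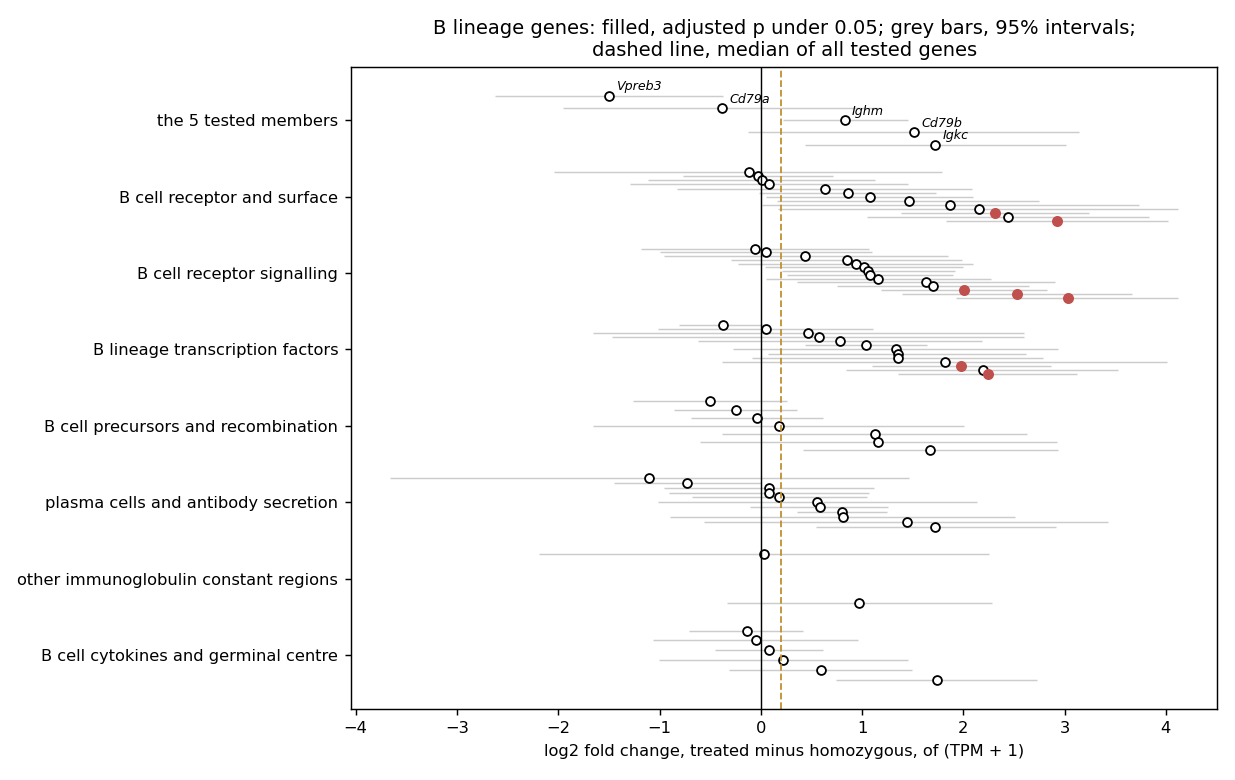
Log2 fold change, treated minus homozygous, of each tested gene of the B lineage lists, with 95% intervals (grey) and filled points for limma adjusted p under 0.05. The 7 called genes are all positive, and the dashed line is the median of all tested genes, 0.20.

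The 7 called genes depend on single libraries. Without homozygous library 1 or without homozygous library 3 the B lineage lists held 0 calls, with adjusted p-values of 0.132 to 0.196 and of 0.117 to 0.176 for the 7 genes. Without homozygous library 2 they held 2 calls, Cd72 and Inpp5d, and without treated library 3 they held 13. Without treated library 1, Spi1 lost its call (adjusted p = 0.0515). With no filter on low values the lists held 0 calls, with adjusted p-values of 0.0752 to 0.106 for the 7 genes. With treated library 3 as the sole treated sample, 1 of the genes was called. Fold changes of the 7 genes stayed on the log2 scale at 1.75 or more in these fits.

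The other constant regions belong to further antibody classes. Of 10 further constant region genes, 7 were in the table and 2 were tested, Iglc1 and Ighd, with 0 called. The gamma constant regions Ighg1 and Ighg2c were listed at 0 in all treated libraries and did not exceed 0.364 TPM in homozygous libraries. Igha had 1.19 TPM in treated library 3 and 0 in the other treated libraries, against 0.368, 0 and 0 TPM in homozygous libraries. Ighd, the heavy chain of IgD on mature naive B cells, had 1.96, 1.97 and 3.43 TPM in treated libraries, against 1.09, 1.89 and 0.0450 TPM in homozygous libraries (log2 fold change 0.97; limma adjusted p = 0.301). Ighm was thus above each of these heavy chain genes in every library.

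Among light chains, the lambda constant regions Iglc1 to Iglc3 summed to 5.07, 4.87 and 0 TPM in treated libraries, against 2.36, 6.16 and 0 TPM in homozygous libraries. Iglc1 gave all of that sum in treated libraries, and differed by 0.03 on the log2 scale (limma adjusted p = 0.987). Kappa made up 82.8%, 83.2% and 100% of the light chain TPM in treated libraries, against 73.3%, 62% and 100% in homozygous libraries. Treated library 3 nevertheless had the lambda variable segment Iglv3 at 10.7 TPM, so its kappa share of 100% rests on constant regions listed at 0. Iglc2 and Iglc3 are near-identical copies, so the split of reads between them is uncertain.

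Variable segments tell heavy and light chains of different B cell clones apart. The table listed 29 segments above 0 somewhere, 17 heavy, 10 kappa and 2 lambda, a set chosen after their values were seen and given with no test. Treated libraries had 4, 4 and 9 of them above 0, against 4, 14 and 1 in homozygous libraries. 22 segments were above 0 in 1 library alone. The 4 heavy segments of treated libraries 1 and 2 were the same, Ighv1-82, Ighv1-69, Ighv1-4 and Ighv1-72, and were listed at 0 in the other 4 libraries. Ighv1-82 had 22.2 TPM in treated library 1 and 21.5 TPM in treated library 2, and the ratios of the 4 segments between these libraries were 1.02 to 1.03. The other 3 segments found in more than 1 library, Ighv14-2, Igkv1-135 and Iglv3, were shared by treated library 3 and homozygous library 2.

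The V exons of 3 of these segments are printed to show how alike the segments are that the quantification told apart, from GENCODE annotation of build GRCm38, 5′ to 3′ on the minus strand, without the 11 bases of leader at their start. Ighv1-82 is at chr12:115952538-115952831, Ighv1-69 at chr12:115623161-115623454 and Ighv1-72 at chr12:115757984-115758277. Capitals mark bases that differ from Ighv1-82 in the alignment.
Ighv1-82: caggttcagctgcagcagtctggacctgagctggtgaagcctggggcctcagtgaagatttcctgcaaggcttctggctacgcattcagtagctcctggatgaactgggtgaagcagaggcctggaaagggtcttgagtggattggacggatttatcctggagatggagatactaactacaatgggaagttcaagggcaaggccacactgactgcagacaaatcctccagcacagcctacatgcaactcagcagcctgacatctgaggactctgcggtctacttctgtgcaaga
Ighv1-69: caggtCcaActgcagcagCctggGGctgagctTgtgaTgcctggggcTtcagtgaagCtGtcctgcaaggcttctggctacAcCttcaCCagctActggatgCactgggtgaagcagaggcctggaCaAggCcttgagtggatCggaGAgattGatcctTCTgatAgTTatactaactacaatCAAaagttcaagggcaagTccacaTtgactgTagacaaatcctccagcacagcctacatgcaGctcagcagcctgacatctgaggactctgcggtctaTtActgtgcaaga
Ighv1-72: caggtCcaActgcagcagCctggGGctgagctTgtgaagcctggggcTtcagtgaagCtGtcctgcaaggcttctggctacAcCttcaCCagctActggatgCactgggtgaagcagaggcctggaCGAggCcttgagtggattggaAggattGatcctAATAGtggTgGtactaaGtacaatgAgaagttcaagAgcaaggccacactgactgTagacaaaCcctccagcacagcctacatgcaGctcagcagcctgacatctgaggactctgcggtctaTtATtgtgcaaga
Over 305 aligned bases, the leader end included, Ighv1-69 and Ighv1-82 were 87.5% identical, Ighv1-72 and Ighv1-82 were 87.9% identical, and Ighv1-69 and Ighv1-72 differed at 20 bases, 93.4% identity. Reads within the shared stretches can be split between such segments, so a level of 1 of them is uncertain.

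Heavy segments summed to 44.5, 43.3 and 7.57 TPM in treated libraries, against 2.53, 16.2 and 3.64 TPM in homozygous libraries. Kappa segments summed to 0, 0 and 38.9 TPM in treated libraries, against 4.07, 8.71 and 0 TPM in homozygous libraries. Treated libraries 1 and 2 thus had heavy segments and no kappa segment above 0, although Igkc was at 24.4 and 24.2 TPM there. Lambda segments summed to 0, 0 and 10.7 TPM in treated libraries, against 0, 2.28 and 0 TPM in homozygous libraries. In treated library 3, Igkv1-135 had 18.0 TPM, Igkv12-44 12.6 TPM, Igkv8-18 5.98 TPM and Igkv13-84 2.28 TPM. No value was above 0 for the same segment in more than 1 homozygous library.

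**Figure D4:**
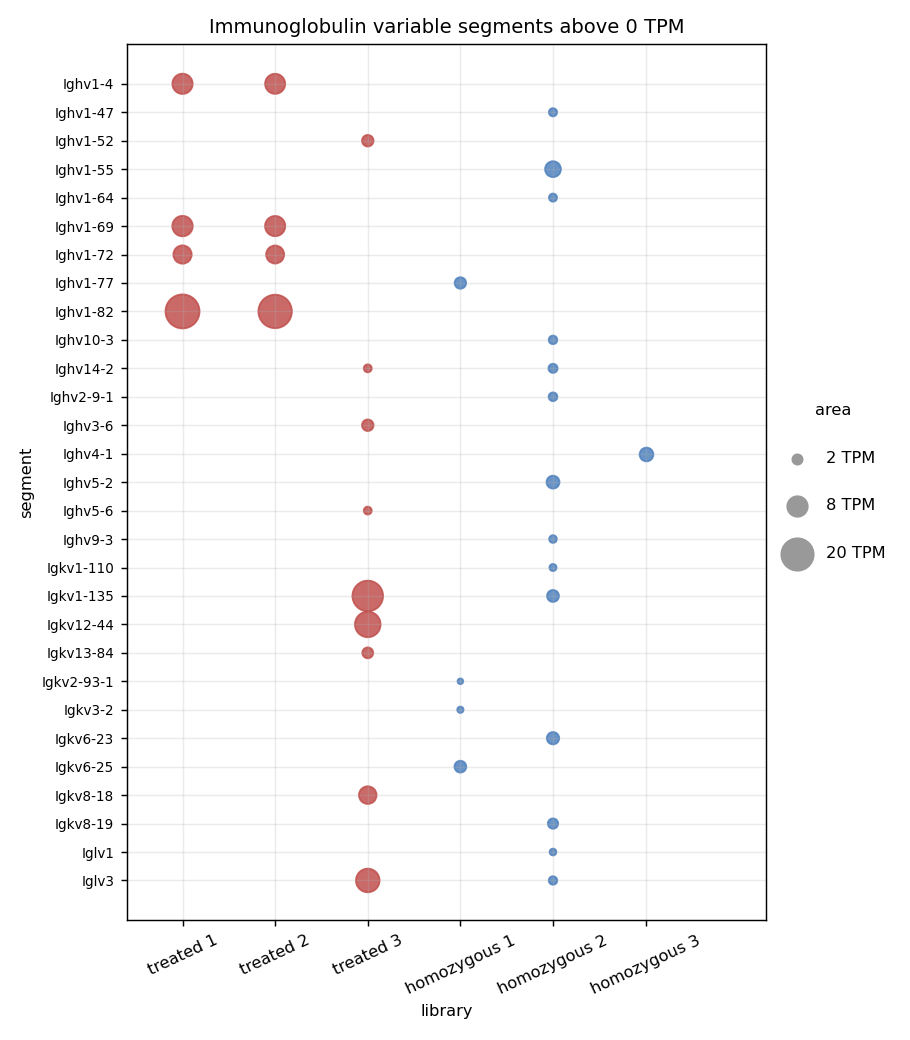
Variable segments (rows) above 0 TPM in each library (columns), with area proportional to TPM (red, treated; blue, homozygous). Treated libraries 1 and 2 show the same 4 heavy segments and no kappa segment, and 22 of the 29 segments appear in 1 library.

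Of the 7 genes, Ighm could also be compared between homozygous and WT mice. It had 26.3, 34.3 and 20.9 TPM in homozygous libraries, against 50.5, 45.8 and 67.9 TPM in WT libraries. Every homozygous library was below every WT library. Means were 27.2 ± 6.78 TPM in homozygous libraries and 54.7 ± 11.6 TPM in WT libraries (SD, n = 3 each), a ratio of 0.496. Ighm fell, with a log2 fold change of -0.99 (SE 0.22, 95% interval -1.49 to -0.49; limma adjusted p = 0.0199). How the 1410 symbols were selected is not stated in the labels. Of the 1348 tested genes, 33.5% were lower past the threshold, 17.9% were higher, 51.3% passed in either direction and 45.6% were lower without overlap. Under median-of-ratios scaling that balance turned, from 241 higher and 451 lower genes to 465 higher and 216 lower, while Ighm stayed lower at -0.86 (limma adjusted p = 0.0259). The fall of Ighm is to be read against these shares, and if the symbols were selected on these samples the adjusted p-values are too small. Leaving out homozygous library 1, WT library 1 or WT library 3 gave adjusted p-values of 0.0503, 0.0501 and 0.0606.

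The homozygous libraries are the same in both comparisons but their values were not: Ighm read 26.3, 34.3 and 20.9 TPM beside WT and 36.0, 46.3 and 29.5 TPM beside treated libraries. The comparisons share these libraries, and treated libraries were not set against WT libraries. The log2 fold change of Ighm was 0.83 in treated relative to homozygous mice, which did not pass the threshold. In homozygous relative to WT mice it was -0.99. The shared homozygous libraries enter these values with opposite sign, so the values are not independent.

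**Figure D5:**
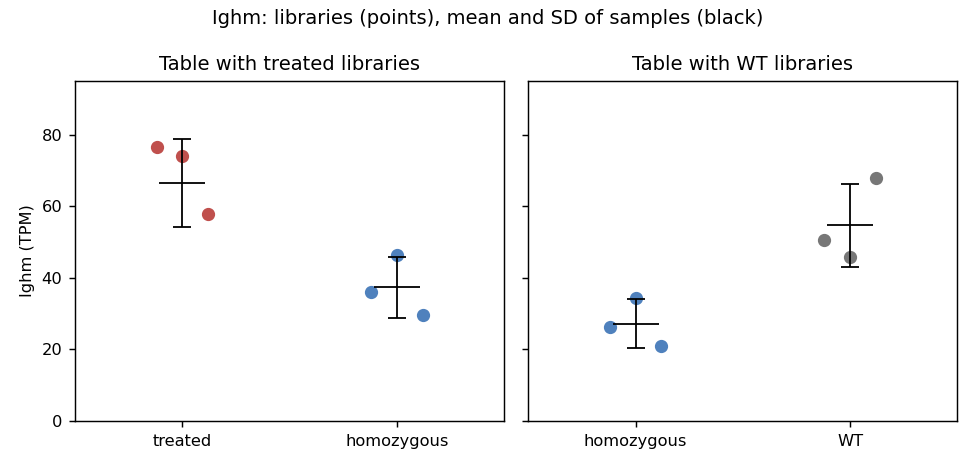
Ighm TPM in treated and homozygous libraries (left) and in homozygous and WT libraries (right). The same homozygous libraries have different values in the panels. Points are libraries, and black bars are mean and SD over samples, with treated libraries 1 and 2 averaged as 1 sample; homozygous libraries are the lowest in both panels.

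Of the 84 other B lineage genes, 7 were measured beside WT and 6 were tested, with 1 higher and 1 lower past the threshold. Bach2, a repressor that holds back plasma cell fate, had 13.4, 17.8 and 12.4 TPM in homozygous libraries, against 46.6, 18.1 and 26.8 TPM in WT libraries (log2 fold change -0.93; limma adjusted p = 0.0458). The closest libraries were 17.8 and 18.1 TPM, and the adjusted p of Bach2 was 0.106 without WT library 1, 0.092 without WT library 3, 0.0926 without homozygous library 1 and 0.0776 without homozygous library 3. Tnfsf13, of APRIL, had 58.0, 68.9 and 56.8 TPM in homozygous libraries, against 44.4, 40.5 and 38.4 TPM in WT libraries (0.56; adjusted p = 0.0261). Its adjusted p was 0.0539 without homozygous library 1, and 0.0521, 0.0659 and 0.0741 without WT libraries 1, 2 and 3. The remaining tested genes, Fcrla, Ptpn6, Bcl11a and Irf4, had adjusted p-values of 0.0661, 0.137, 0.078 and 0.0635. Of 3 bone genes measured there, 2 were lower past the threshold, where 33.5% of all tested genes were. Ibsp, bone sialoprotein, had 62.6, 183 and 67.0 TPM in homozygous libraries, against 240, 232 and 381 TPM in WT libraries, with -1.59 on the log2 scale (limma adjusted p = 0.0261). None of the T cell, macrophage, marrow granulocyte or erythroid genes was among the 1410 symbols, so their part in the Ighm difference was not tested.

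Genes with the pattern most like each of the 5 tested genes were found by the root mean square difference of centred log2(TPM + 1) over the 6 libraries, a description over 2 groups that share conditions. Map3k8, Tead4 and Sh3rf1 lay nearest to Ighm, at 0.0306 to 0.0457, where the median over all tested genes was 0.578. Ifi209, Cd36 and Sting1 lay nearest to Igkc, at 0.145 to 0.179. Nfam1, Cd36 and Pou2af1 lay nearest to Cd79b, at 0.181 to 0.224. Pou2af1, a co-activator of octamer factors in B cells, was the one B lineage list gene among them, with 7.82, 7.73 and 6.95 TPM in treated libraries, against 3.50, 4.94 and 0.369 TPM in homozygous libraries. Slc5a5, Gm15963 and Gm29012 lay nearest to Cd79a, at 0.106 to 0.125, and A430105J06Rik, Myh7b and Gm4924 nearest to Vpreb3, at 0.107 to 0.176.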

How the data were processed

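Total RNA was sequenced from 3 WT, 3 homozygous and 3 treated libraries with a strand-specific kit, per the labels' protocols. The authors deposited TPM values in 2 tables, and per the submitters' processing notes used kallisto 0.51.0, DESeq with no version given, and build GRCm39. The homozygous libraries have different TPM in both tables, with a median ratio of 0.855 to 0.860, so tests stayed within a table. TPM keeps no depth, so no counting interval is given. Repeated symbols were summed. A gene was tested if it reached 1 TPM in 3 libraries or more, with limma 3.58.1 in R 4.3.3 on log2(TPM + 1), with a mean-variance trend, two-sided, and Benjamini-Hochberg adjustment over all tested genes at 0.05. Treated libraries 1 and 2 entered as their mean. The fit was tested on simulated data. The 7 genes, the gene lists and the merging of these libraries were chosen with earlier results of these data known. Named genes were the 7, up to 3 higher and 2 lower called genes of each B lineage list by smallest p, the 2 most abundant of a list with none and of other cell type lists, and the 3 genes nearest in pattern to each tested member. The results of 2 B lineage list genes are not reported here. Other genes named in the text were chosen after their values were seen. Same-numbered libraries of different groups did not deviate together, so numbers were not used as pairs. Sequences came from RefSeq and GENCODE tables of build GRCm38, and no coordinates of the authors' build are given.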

Additional observations from a re-analysis of the deposited data

How the results depend on the processing

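Depth is unknown, and 2 treated samples limit every comparison with treated mice. Of 90 alternative values for single members, 80 kept direction and side of the threshold, 2 turned direction, 5 passed the threshold where the reported fit did not, and 3 missed it where the reported fit passed. The turned values were Cd79a at 0.465 with treated library 3 as the sole treated sample and 0.0197 without homozygous library 2, and ran from -1.23 to 0.0197 when each library was left out; the cause was not tested. For treated against homozygous mice, the 0 called members became 3 with all treated libraries as separate samples. A replicate block was fitted on those separate libraries, so it too counts near-identical libraries singly, and gave 2, Ighm and Igkc, against 3 without the block. The 7 called B lineage genes became 17 with separate treated libraries, 1 with treated library 3 as the sole treated sample, 0 without the filter on low values, 13 with the replicate block on separate libraries (17 without it), and 0 to 13 when each library was left out. The 754 called genes overall became 3563, 222, 134 and 1485 under the same settings in that order (the block lowered 3563 to 1485), 479 without the mean-variance trend, and 63 to 2984 when each library was left out. The share of these calls that were higher was 78.1%, against 63.5% under median-of-ratios scaling. For homozygous against WT mice, the 1 called member became 0 to 1 when each library was left out. The 2 called B lineage genes became 1 under median-of-ratios scaling, 1 without the trend, 1 with the replicate block and 0 to 3 when each library was left out. The 692 called genes became 343 with the replicate block and 103 to 611 when each library was left out, and their share higher was 34.8%, against 68.3% under median-of-ratios scaling. Same-numbered libraries correlated between -0.146 and 0.0493 in their deviations, so the replicate block has no basis in pairing. A sole treated library is assumed to vary like the homozygous samples. Fits without treated library 1 or 2 keep its near-identical partner. Under a filter of 5 TPM, Cd79a, Cd79b and Vpreb3 could not be fitted.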
